A study of Mus musculus with 9 samples.

Results

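Ebf1, Pax5, Bach2, Ighm, Cd79b, Vpreb3, Igll1 and Fcmr are genes of B cell identity and of the B cell receptor, and they were followed through the deposited list of top marker genes of mouse bone marrow. They were chosen by symbol, and all 8 were among the 234 genes of that list, which holds 293 entries for 17 cell populations. The 8 genes had 14 entries, 7 for the population named B cells and 7 for the population named Pre/pro B cells, and 0 entries for the 15 other populations. Single-cell RNA-Seq of marrow mononuclear cells had been run on 9 mice of the C57BL/KaLwRij strain, and the labels give all of them an age of 12 weeks. By label, 3 mice belonged to the CST6 group (recombinant mouse Cst6, a cystatin that inhibits lysosomal cysteine proteases), 3 to the PBS group (vehicle) and 2 to the Control group, and 1 mouse had no label for its agent. These group sizes are in doubt, since 1 mouse labelled PBS has a title numbered like those of the controls while the study describes groups of equal size, and no value below depends on them. In the study, the CST6 and PBS mice carried 5TGM1 myeloma, a tumor of plasma cells, and the controls did not. GFP-marked myeloma cells were sorted out of the marrow, so the cells measured were the surrounding mononuclear cells. The list pools all mice, so the effects of tumor and of CST6 were not analysed here, and the values have no replicate error.

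B cells arise in the marrow through a series of stages that are set by transcription factors and by checks on the new antibody chains. Ebf1 commits a progenitor to the B lineage and switches on Pax5, which keeps the cell there. A pro-B cell joins the gene segments of its heavy chain, and the resulting μ chain, encoded by Ighm, goes to the surface with a surrogate light chain and the signalling chains Cd79a and Cd79b as the pre-B cell receptor. When a true light chain is made, it takes the place of the surrogate and the cell becomes an IgM-bearing B cell.

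Both populations listed the factors Ebf1, Pax5 and Bach2 and the receptor genes Ighm and Cd79b, and differed in which of them stood highest. Of the 8 genes, 6 were listed for both populations, namely Ebf1, Pax5, Bach2, Ighm, Cd79b and Vpreb3. Fcmr, the receptor for secreted IgM, was listed for B cells only, and Igll1, the λ5 chain of the surrogate light chain, for Pre/pro B cells only. Each population's list held 20 genes, the most that any population had, so 13 other genes stood beside the 7 in each. An entry sets 1 population against the rest of the cells, with all mice together. It gives a log2 fold change and an area under the receiver operating characteristic curve (AUC), for which 1 means that the gene alone separates the population from the other cells. It also gives the percentages of cells, in the population and among the rest, whose value is above 0. A gene without an entry was not among the top genes, which says nothing of its level there.

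The promoters of the surrogate light chain gene Igll1 and its relative Vpreb3 are shown because of how these genes stood in the populations. Igll1 was listed for Pre/pro B cells only, and Vpreb3 was the shared gene whose fold change was lowest in B cells relative to Pre/pro B cells. RefSeq windows on GRCm38.p6 were found for 6 of the 8 genes, with Cd79b and Ighm not matched. The 250 bases before the annotated start are given 5′ to 3′, with motif matches in capitals.
Igll1 (chr16:16863986-16864235, minus strand): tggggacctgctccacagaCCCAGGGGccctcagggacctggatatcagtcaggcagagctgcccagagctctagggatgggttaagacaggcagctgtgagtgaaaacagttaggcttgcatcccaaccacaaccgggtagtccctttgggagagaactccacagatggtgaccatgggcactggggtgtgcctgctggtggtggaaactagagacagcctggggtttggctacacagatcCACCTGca
Vpreb3 (chr10:75948050-75948299, plus strand): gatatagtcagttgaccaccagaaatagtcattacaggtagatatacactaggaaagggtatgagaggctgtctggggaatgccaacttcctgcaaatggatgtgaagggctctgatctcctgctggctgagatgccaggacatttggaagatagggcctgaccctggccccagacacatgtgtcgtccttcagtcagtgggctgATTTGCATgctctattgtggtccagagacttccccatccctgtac
The Igll1 window overlapped no annotated exon. It held 1 match to the EBF motif CCCNNGGG, whose first base lies 231 bases before the start, and 1 to the E-box CAGGTG, read on the opposite strand as CACCTG 8 bases before the start. The Vpreb3 window lies inside the annotated gene and in no exon. It held 1 octamer (ATGCAAAT, here on the opposite strand) 45 bases before the start, and octamers are known as binding sites of the POU factors of B cells. Both strands were searched and no matches overlapped. Of 32817 promoter windows of the same length, 11.8% held the EBF motif, 17.2% this E-box and 1.60% the octamer. The octamer was added to the search after the data were seen, so its low share does not measure how unusual the Vpreb3 match is. The windows of Ebf1, Pax5, Bach2 and Fcmr held none of these letters, and a match describes sequence only.

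Ebf1, the commitment factor, was near the top in both populations. In B cells its deposited log2 fold change was 4.00 with an AUC of 0.941, the third highest of 20, and in Pre/pro B cells it was 4.05 with an AUC of 0.985, the highest of 20. Values above 0 were found in 95.0% of B cells and 99.9% of Pre/pro B cells. The difference of log2 fold changes, B cells minus Pre/pro B cells, was thus small, at -0.059, while the score and the share of cells were both lower in B cells. Ebf1 lies on chromosome 11 from 44617317 to 45008091 on the plus strand in GENCODE M21, the annotation of mm10 used for all positions of genes given here.

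Pax5, the factor that maintains B cell identity, had a higher fold change but a lower AUC and a lower share of cells in B cells. Its deposited log2 fold change was 3.26 in B cells and 2.43 in Pre/pro B cells. Its AUC, in contrast, was 0.822 in B cells and 0.906 in Pre/pro B cells, and 81.5% of B cells had a value against 92.1% of Pre/pro B cells. A larger fold change therefore went with a smaller share of cells with a value above 0. Among the other cells, 32.7% had a Pax5 value when set against B cells and 33.0% when set against Pre/pro B cells, the 2 lowest shares of the 14 entries. Pax5 lies on chromosome 4 from 44524757 to 44710487 on the minus strand.

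Bach2, a repressor that holds back plasma cell differentiation, had the widest drop in AUC. The score was 0.811 in B cells, rank 17 of 20, and 0.944 in Pre/pro B cells, rank 6. Its deposited log2 fold changes were closer, 2.98 in B cells and 3.07 in Pre/pro B cells. Bach2 values were present in 81.9% of B cells and 96.3% of Pre/pro B cells, a difference of -14.4 percentage points and the largest among the 6 shared genes. The gene lies on chromosome 4 from 32238804 to 32586108 on the plus strand.

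Ighm and Cd79b, which encode the μ heavy chain and the Igβ signalling chain of the receptor, led the list of B cells. Ighm had a deposited log2 fold change of 4.05 in B cells, with an AUC of 0.977, and of 2.98 in Pre/pro B cells, with an AUC of 0.959. Cd79b stood at 4.13 on the log2 scale in B cells, with an AUC of 0.954, and at 2.72 in Pre/pro B cells, with an AUC of 0.942. Of the 6 shared genes, only these had a higher AUC in B cells. By share of cells the populations were close for both genes. Ighm was above 0 in 99.4% of B cells and 99.8% of Pre/pro B cells, and Cd79b in 96.3% of B cells and 97.4% of Pre/pro B cells. Ighm lies on chromosome 12 from 113418558 to 113422730, where it is annotated as an immunoglobulin constant region gene, and Cd79b on chromosome 11 from 106311341 to 106314762, both on the minus strand. The other 7 genes are annotated as protein-coding.

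Vpreb3, which encodes a small immunoglobulin-like protein related to the surrogate light chain, led the Pre/pro B cells by fold change. Its deposited log2 fold change was 3.69 in B cells and 4.16 in Pre/pro B cells, the highest of all 14 entries. The AUC was 0.878 in B cells and 0.982 in Pre/pro B cells, and 87.9% of B cells had a value against 99.3% of Pre/pro B cells. All measures of Vpreb3 were therefore lower in B cells. It lies on chromosome 10 from 75943057 to 75949657 on the plus strand, and the window printed above lies inside it.

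Igll1 and Fcmr had a single entry each. Igll1 pairs with a VpreB chain to form the surrogate light chain of the pre-B cell receptor, and in Pre/pro B cells it had a deposited log2 fold change of 2.68 and a value in 82.6% of cells against 33.5% of all others. With an AUC of 0.833 it was the 20th and last gene listed there, so it stood at the edge of the table. Fcmr binds the Fc part of IgM on the surface of lymphocytes. In B cells it had a deposited log2 fold change of 2.57, an AUC of 0.890 (rank 7 of 20) and a value in 87.1% of cells against 42.0% of all others. Igll1 lies on chromosome 16 from 16860671 to 16863985 on the minus strand and Fcmr on chromosome 1 from 130865669 to 130880791 on the plus strand. Neither gene's level in the other population can be read from the list.

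**Figure D1:**
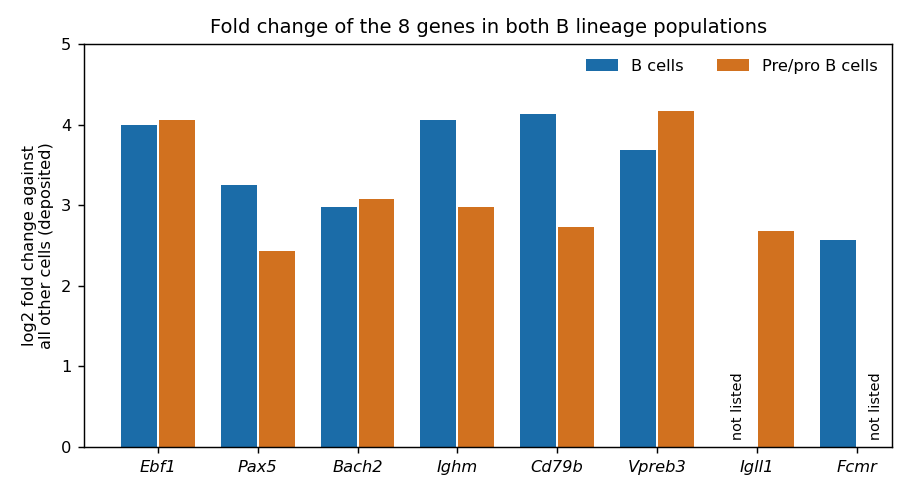
Deposited log2 fold change (y axis) of the 8 genes against all other cells, in B cells (blue) and Pre/pro B cells (orange), with no replicate error. Cd79b, Ighm and Pax5 had the higher bar in B cells, Vpreb3 in Pre/pro B cells, and Ebf1 and Bach2 had bars of similar height, while Igll1 and Fcmr had 1 bar each.

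Set against the other listed genes, the 8 genes took most of the highest fold changes. In B cells the 5 highest log2 fold changes were all theirs, with a median of 3.69 over the 7 genes and 2.38 over the 13 others. In Pre/pro B cells they held 4 of the 5 highest, with medians of 2.98 and 2.48 for the 7 genes and the 13 others. The median over all 293 entries was 2.06. Ordered by AUC, 3 of the first 5 genes were theirs in each population. These entries had been chosen by the authors as top genes of clusters made from the same cells. The 8 genes were also chosen with earlier results of these data known, so the ranks are a description.

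**Figure D2:**
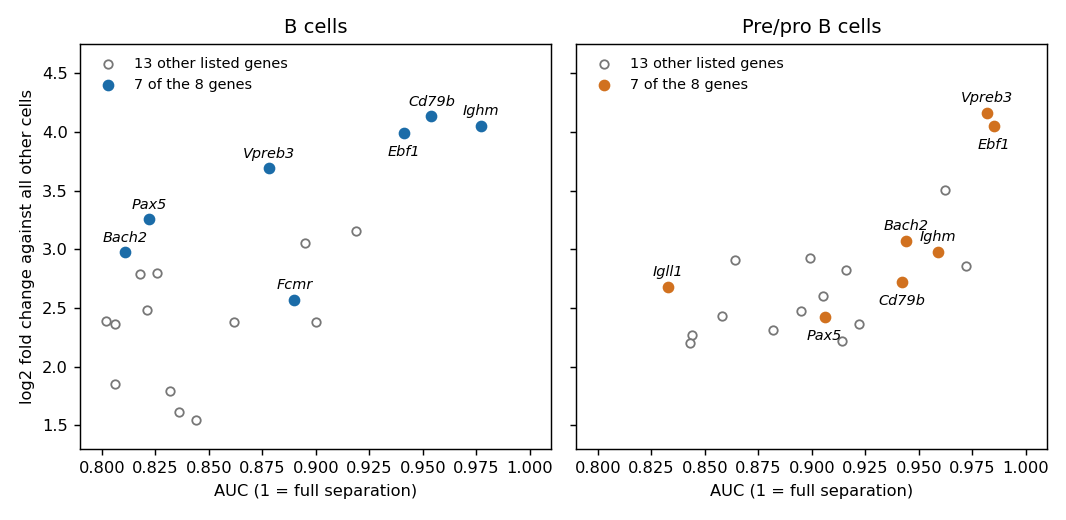
AUC (x axis) and log2 fold change (y axis) of the 20 genes listed for B cells (left) and for Pre/pro B cells (right), with 7 of the 8 genes filled and named and 13 other genes open. In B cells Pax5 and Bach2 sat at AUC values of 0.822 and 0.811 despite fold changes near 3 on the log2 scale, whereas in Pre/pro B cells Ebf1 and Vpreb3 stood at the upper right.

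The comparison of B cells with Pre/pro B cells depended on the measure. By log2 fold change, 3 of the 6 shared genes were higher in B cells, with differences of 1.41 for Cd79b, 1.07 for Ighm and 0.83 for Pax5. The other 3 were lower in B cells, at -0.48 for Vpreb3, -0.099 for Bach2 and -0.059 for Ebf1. The 6 values fell on both sides of 0 with a median of 0.38. That median turned to -0.059 when Ighm, Cd79b or Pax5 was left out or when Chchd10, the 1 other gene listed for both, was added, and moved to 0.83 without Ebf1, Bach2 or Vpreb3. By AUC, 2 of the 6 genes were higher in B cells, and by the share of cells with a value 0 of 6. Chchd10 was lower in B cells by both as well, with an AUC of 0.895 against 0.962. Its share was 91.4% of B cells against 97.6% of Pre/pro B cells, so a lower share was not particular to the 6 genes. Depth in each population is unknown from the list, and its part in these shares was not tested. No test was possible, because the list holds no values per mouse.

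Each fold change has its own set of other cells, and those of B cells include the Pre/pro B cells and the reverse. The share of all cells that have a gene must be the same whether it is computed from the entry of B cells or from that of Pre/pro B cells. With shares given to 3 decimals, this fixes the sizes that the populations can have. For the 7 genes listed for both, the computations from both entries came within 0.0498 percentage points of each other for every gene at the best pair of sizes, less than the rounding to 3 decimals allows, so the entries of both populations can describe 1 common set of cells. The sizes allowed were 2.63% to 5.07% of all cells for B cells and 1.67% to 3.73% for Pre/pro B cells. Over that region B cells were 1.33 to 1.57 times as many as Pre/pro B cells. With all 50 genes listed for more than 1 population and sizes that sum to 100%, the equalities could again all be met, at 2.63% to 3.97% for B cells and 1.67% to 2.69% for Pre/pro B cells. These ranges cover rounding only, and they are averages over all mice of all groups.

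**Figure D3:**
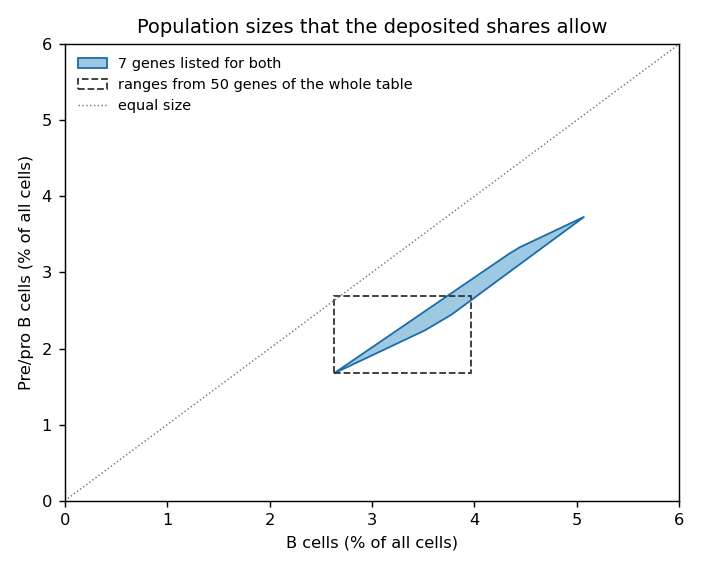
Sizes of B cells (x axis) and Pre/pro B cells (y axis), as percent of all cells, that the deposited shares of 7 genes allow (shaded area), with the ranges from 50 genes of the whole table (dashed box) and a line of equal size. The whole area lies on the side of more B cells, from 2.63% to 5.07% of all cells.

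With these sizes the cells outside both populations could be described. Ighm had a value in 75.5% to 76.1% of them, Cd79b in 67.0% to 67.7% and Bach2 in 54.9% to 55.8%. The share was 43.1% to 44.5% for Ebf1, 42.6% to 43.9% for Vpreb3 and 30.2% to 31.7% for Pax5. By name these cells included neutrophils, monocytes and their progenitors, which are not known to make the B cell receptor. Values above 0 of B lineage genes were thus found in many cells of other lineages, by the same measure that gave 81.5% to 99.4% in B cells. Whether shares were taken from UMI counts or from values altered by the integration of samples is not stated in the labels or the study's methods, and the parts of free RNA and of integration in these shares were not tested. Across all 293 entries the median share among other cells was 67.5%, against 45.7% over the 14 entries of the 8 genes.

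**Figure D4:**
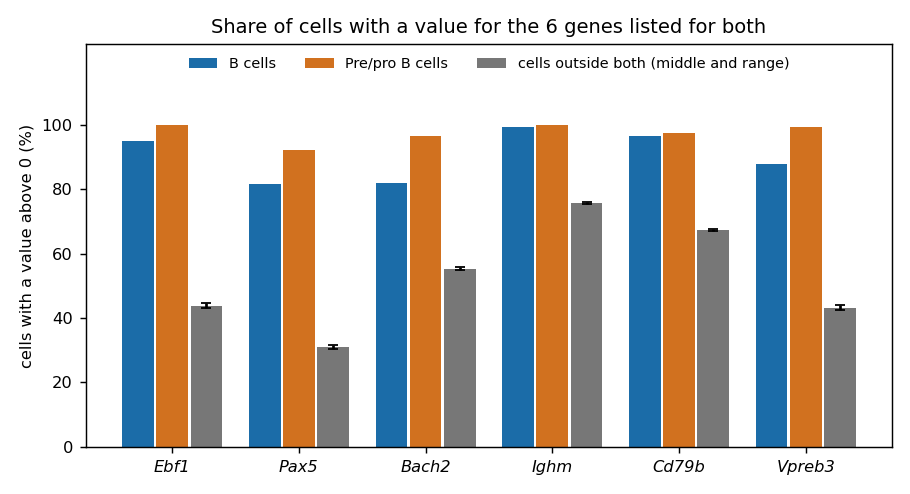
Percent of cells with a value above 0 (y axis) for the 6 genes listed for both populations, in B cells (blue), Pre/pro B cells (orange) and all cells outside both (gray, middle of the range allowed by rounding, with that range as bars). Blue bars were below orange ones for each gene, and gray bars ran between 30.2% for Pax5 and 76.1% for Ighm.

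The same sizes allow a direct ratio of levels between the populations, if a deposited fold change is a ratio of mean levels to which one constant may have been added. That form is usual for the tool used, but was not stated for this table. Any such constant is part of the levels compared here. Under that form, the level in B cells was 1.74 to 2.02 times that in Pre/pro B cells for Cd79b. The level was 1.48 to 1.66 times for Ighm and 1.44 to 1.56 times for Pax5. It was 0.699 to 0.736 times for Vpreb3, 0.848 to 0.877 times for Ebf1 and 0.876 to 0.893 times for Bach2. The direction of each gene was the one seen in its difference of fold changes. Both are computed from the same deposited fold changes, so this is no separate evidence. The sizes changed, with log2 ratios of 0.80 to 1.02 for Cd79b and 0.56 to 0.73 for Ighm, both smaller than their differences of fold changes. For Ebf1 the log2 ratio was -0.24 to -0.19, farther from 0 than its difference. Under that form, Cd79b, Ighm and Pax5 were higher in B cells, and Vpreb3, Ebf1 and Bach2 lower, over the whole range of allowed sizes. That range covers rounding only and holds no replicate error. The list pools all mice, and the study reports a lower proportion of marrow B cells in tumor-bearing mice. A difference between the populations can therefore not be told apart here from a difference between mice or groups. Whether the levels were altered by the integration of samples is not stated. The differences of fold changes were small for Ebf1 and Bach2.

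**Figure D5:**
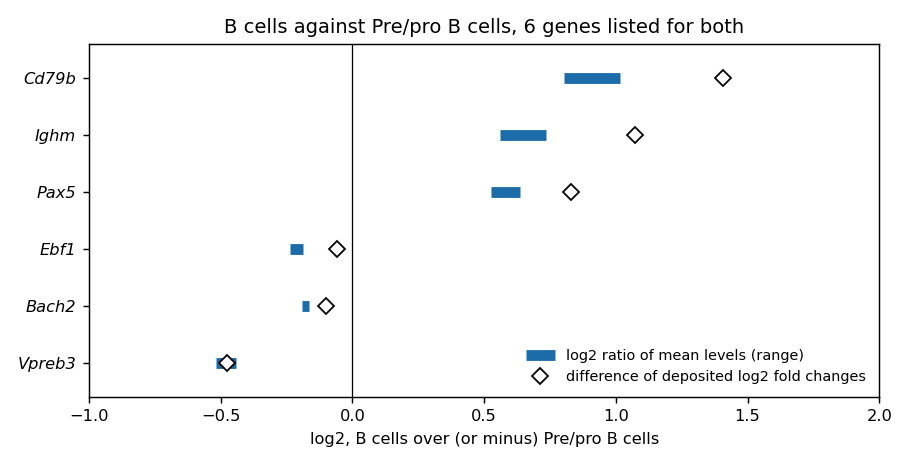
B cells against Pre/pro B cells on the log2 scale (x axis) for the 6 shared genes, as the difference of deposited log2 fold changes (diamonds) and as the log2 ratio of mean levels over the allowed population sizes (blue bars). The ratio assumes that fold changes are ratios of mean levels, any added constant included. Cd79b, Ighm and Pax5 lay right of 0 and Vpreb3, Ebf1 and Bach2 left of it by both measures, which rest on the same deposited fold changes.

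A wider set of B lineage genes, also chosen with earlier results of these data known, was followed through the list as well. A population listed at most 20 genes, and the list does not say how many genes the authors searched. No share over all genes can therefore stand beside the counts below, and they are descriptions only. Of 20 transcription factors of the lineage, 9 were listed for any population, 4 of them for B cells and 6 for Pre/pro B cells. Besides Ebf1, Pax5 and Bach2, B cells listed Pou2f2, the octamer-binding factor Oct-2, at a deposited log2 fold change of 2.37. Pre/pro B cells listed Pou2af1, the coactivator of the octamer-binding factors, at 2.48, Tcf3, which encodes the E2A proteins, at 2.20, and Sox4, a factor needed for early B cells, at 2.92. Sox4 was also listed for Lymphomyeloids prog. II at 1.87, Tcf4 for Dendritic cells at 4.15 and Runx1 for Eosinophil/Basophil Prog. at 2.63. Of 13 genes on the list of the pre-B and B cell receptor, which also holds Vpreb3 and the IgM receptor gene Fcmr, 5 were listed and all 5 belong to the 8 genes, so Cd79a, Vpreb1 and the light chain genes Igkc and Iglc1 had no entry. None of 14 genes of receptor signalling, such as Syk and Blnk, and none of 9 plasma cell genes was listed for any population. Of 6 genes of early B cells, recombination and the IL-7 receptor, only Akap12, a scaffold of protein kinases, was listed. It stood at 2.86 in Pre/pro B cells, while Rag1, Rag2 and Il7r had no entry. Of 12 surface genes of mature B cells, Ly6d was listed for B cells at 3.16 and for Dendritic cells at 3.05, while Cd74, H2-Aa and H2-Ab1 were listed for Dendritic cells only and Ms4a1 had no entry.

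No gene of 5 marker lists of other cell types was listed for either population, a count that also has no share over all genes beside it. These lists held 11 T and NK cell genes, 8 neutrophil genes, 7 monocyte and macrophage genes, 4 genes of plasmacytoid dendritic cells and 6 erythroid genes, of which 7, 8, 5, 4 and 0 were listed for other populations. Outside these lists, Ly6d was shared with Dendritic cells, as given above, and Pre/pro B cells shared Sox4 with Lymphomyeloids prog. II, Myb with Myeloid prog. and H1f5 with Immature Neutrophils I and Monocyte prog. I. The mitochondrial transcripts mt-Nd1 and mt-Nd2, named here after their values were seen, were listed for B cells at deposited log2 fold changes of 1.61 and 1.80 and for no other population, and their part in the values of the 8 genes was not tested.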

How the data were processed

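Mononuclear marrow cells of 9 mice were profiled with the 10x Chromium 3′ kit. Per the labels, the authors used Cell Ranger, the mm10 genome and Seurat 4. The study's methods describe filters on detected genes and mitochondrial share, integration by reciprocal principal components, Louvain clustering and a marker search by MAST, while the columns are those of Seurat's ROC test. How doublets were treated is not stated in the labels or the methods.

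The authors deposited 1 table, with 293 entries for 17 populations. The deposited AUC and power are scores, and power equalled 2 × AUC - 1 in all 293 entries within 1e-09. The deposited fold change is on the log2 scale and the deposited average difference on the natural log scale; the average difference was the log2 fold change times the natural log of 2 in all 293. The deposited shares of cells are fractions with 3 decimals, printed here as percentages. These columns are the authors' own comparisons of populations, read here because they are the only values analysed. The table names 0 columns of single samples, so depth and number of cells are unknown from it and no counting interval is given.

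Entries were matched by exact symbol. Bounds on population size came from linear programming (SciPy 1.17.1, Python 3.11.15), requiring each gene's share over all cells to be equal from both entries within 0.001. They were tested on simulated counts from a common set of cells, with fold changes made as ratios of means plus a constant. That simulation cannot show whether the deposited values have this form or were altered by integration. Ratios of mean levels and the octamer were added after seeing the data. All 8 genes were named, with the other genes listed for both populations, the 5 other genes of highest AUC in each, and the listed genes of 6 pathway lists. The 8 genes and all lists were chosen with earlier results of these data known. Gene positions are from GENCODE M21 and promoters from RefSeq.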

Additional observations from a re-analysis of the deposited data

How the results depend on the processing

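Values are pooled over mice, so left-out samples could not be tried, and genes were left out instead. No paired analysis was possible because the table has no values per sample. The 14 entries stayed 14 when letter case was ignored. Of the 6 genes listed for both populations, 5 remained among the 10 highest fold changes of each, 4 at an AUC of at least 0.85 and 3 at an AUC of at least 0.9. The median difference in log2 fold change, 0.38, was -0.059 over all genes listed for both and ran from -0.059 to 0.83 with each gene left out. The count of genes higher in B cells was 3 by fold change, 2 by AUC, 0 by the share of cells and 0 by the share inside minus the share outside. The middle of the size range was 3.85% for B cells (3.57% to 4.12% with each gene left out, 3.30% from the whole table) and 2.70% for Pre/pro B cells (2.47% to 2.87%, and 2.18%). Without Bach2 the ranges widened to 1.51% to 5.64% for B cells and 0.645% to 4.29% for Pre/pro B cells. The count of genes with a higher level in B cells was also 3 with the whole-table ranges. Those sizes lie inside the region already used, so this count could not change.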

Other observations

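Among the other genes of these populations, Chchd10, which encodes a mitochondrial protein, was the 1 gene outside the 8 that was listed for both B cells and Pre/pro B cells. It was lower in B cells by each measure, with a deposited log2 fold change of 3.06 in B cells and 3.51 in Pre/pro B cells and an AUC of 0.895 in B cells and 0.962 in Pre/pro B cells. Its level in B cells, any added constant included, was 0.717 to 0.743 times that in Pre/pro B cells. That ratio rests on the same assumption on fold changes and lay next to that of Vpreb3. Beside it, the other genes of highest AUC in B cells were Ly6d, a surface marker of B-lineage progenitors and B cells, at a deposited log2 fold change of 3.16, Ralgps2 at 2.38, Sdc4 (syndecan 4) at 2.38 and Dennd5b at 1.54. In Pre/pro B cells they were Akap12, a scaffold of protein kinases, at 2.86, Cecr2 at 2.37, the histone methyltransferase gene Ezh2 at 2.82 and the chromatin protein gene Hmgb1 at 2.22.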
